A study of Mus musculus with 6 samples.

Results

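Laminins are the cross-shaped glycoproteins that build basement membranes, each assembled from an alpha, a beta and a gamma chain, and integrins are the cell surface receptors, each an alpha and a beta subunit, through which cells hold on to laminin and other matrix proteins. All gene symbols of the deposited tables that name a laminin chain or an integrin alpha or beta subunit were taken, which gave 37 genes of the 23337 listed: 11 laminin chains, 18 integrin alpha subunits and 8 integrin beta subunits. The samples were whole embryonic pancreata of NMRI mice at E13.5, in middle gestation, and their mRNA was sequenced. The mutant group held 3 pools from embryos labelled Prox1-nullyzygous, with alleles written Prox1 GFPCre/D, and the control group held 3 pools from wildtype embryos. Prox1 encodes a homeodomain transcription factor, the D allele is not explained by the labels, and the GFPCre allele is carried by the mutants and not by the controls. Every pool combined 5 to 6 pancreata of equal genotype and gave 1 library, so the spread given below is between pools and not between embryos.

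In the embryonic pancreas a laminin basement membrane lies between the branching epithelium and the surrounding mesenchyme, and others surround blood vessels and nerves. The alpha chain of a laminin carries the main binding sites for integrins and for dystroglycan, while the beta and gamma chains complete the trimer. The alpha subunit of an integrin largely sets its ligand, and the beta subunit links it through talin and kindlin to actin.

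The libraries held 16060424 to 17633867 counted reads, so that 1 CPM (reads scaled to a common library size by TMM) stood for 15.9 to 17.5 reads. The targeted gene Prox1 stood at 83.6, 104.4 and 91.6 CPM in mutant pools 1 to 3, against 105.3, 102.7 and 106.5 CPM in control pools 1 to 3. The part of the locus that the mutant alleles lack is not given, so this level does not check the genotype labels. Control pool 2 stood apart in genes of smooth muscle and in the foregut gene Sox2. It held 73.6 CPM of the smooth muscle myosin gene Myh11, against 2.16 to 6.54 CPM in the other pools. Of Sox2, a scarce gene here, it held 5.72 CPM, against 0.353 to 0.716 CPM in the other pools. Mutant pool 1 and control pool 3 held at most 0.526 CPM of Xist, the RNA of the inactive X chromosome, against 2014 to 2813 CPM in the other pools. Of 10 markers of pancreatic epithelium all were detected in every pool, with summed levels of 2791 to 3470 CPM in mutants and 2416 to 3412 CPM in controls.

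Most of these genes had slightly higher levels in mutants, and few of the differences passed the test. Of the 37 genes, 35 had enough reads to be tested, and 8 were called higher and 1 lower at an adjusted p under 0.05 (edgeR quasi-likelihood test, Benjamini-Hochberg adjustment over all 14687 genes tested). The calls made up 25.7% of the 35 genes, where 7.95% of all genes tested were called. Genes called higher made up 22.9%, against 3.67% of all genes tested. The 3 mutant and 3 control values did not overlap for 16 of the 35 genes (45.7%), against 26.4% of all genes tested. The median log2 fold change, mutant over control, was 0.28, against 0.00 for all genes tested, and 32 of the 35 genes had a value above 0, as did 50.2% of all genes tested. DESeq2 called 11 of the 35 genes, against 8.88% of all genes tested. The 6 fits that left out 1 pool gave 4 to 13 called genes: 4 without control pool 1, against 4.24% of all genes then tested, and 13 without control pool 2, against 9.57%. Leaving out both pools with almost no Xist gave 5 called genes, against 4.51% of all genes then tested. Because whole organs were sequenced, a changed share of a cell type cannot be told apart from a changed level within its cells.

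**Figure D1:**
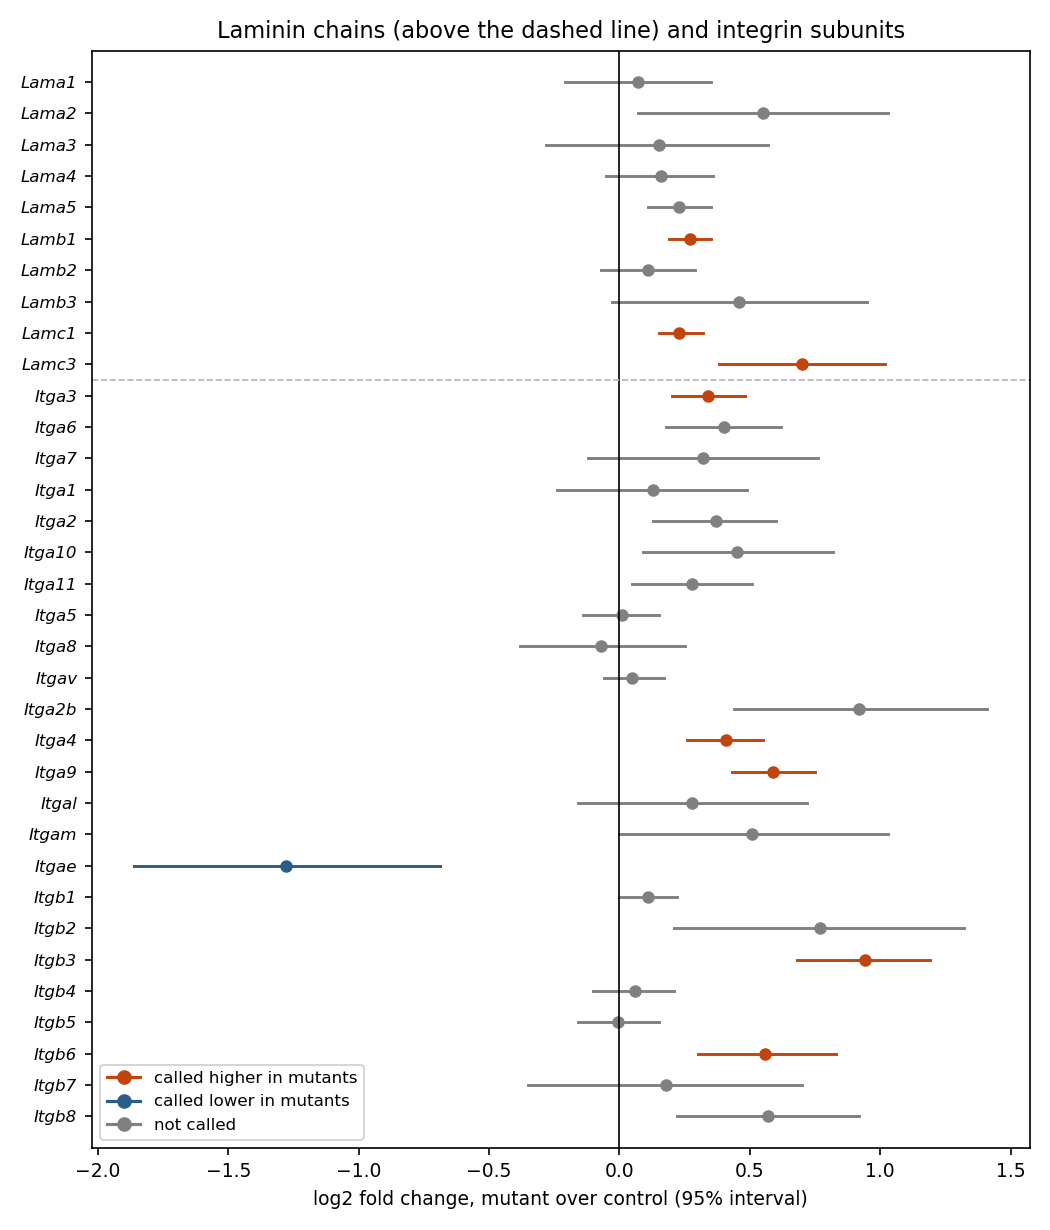
Log2 fold change, mutant over control, for laminin and integrin genes tested, with 95% intervals as lines; red marks genes called higher in mutants, blue lower, grey not called. The laminin chains drawn lie above the dashed line, all at values above 0, and Itgae, at -1.28, is the single gene called lower.

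All 11 laminin chains passed the filter, of which 3 were higher by the test, 0 lower and 8 unresolved, with a median log2 fold change of 0.23. The share called higher was 27.3%, against 3.67% of all genes tested. By level per exon length, in CPM per kilobase, Lamc1 was the most abundant chain, with 116.7 ± 0.661 in mutants and 99.3 ± 3.21 in controls (SD, n = 3 each). Lamb1 came next, at 69.8 ± 0.395 CPM per kilobase in mutants and 57.8 ± 1.14 in controls. Lama5 led the alpha chains, at 32.4 ± 0.978 CPM per kilobase in mutants and 27.6 ± 2.38 in controls, and Lamb2 followed at 21.5 ± 0.276 and 20.0 ± 3.05. Lama1 stood at 13.4 ± 2.39 CPM per kilobase in mutants and 12.8 ± 2.11 in controls, and Lama4 at 10.9 ± 1.92 and 9.8 ± 0.309. Lama2, Lamc3, Lamb3 and Lama3 stood below 4 CPM per kilobase in both groups. These levels divide by the union of all annotated exons, and dividing by the principal transcript instead raised Lamb1 to 124.5 CPM per kilobase in mutants and 103.2 in controls, close to Lamc1 at 126.7 and 107.8.

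Among alpha and among beta chains the make-up was similar in both groups. Lamb1 supplied 75.5% ± 0.113 of beta chain level per length in mutants and 73.7% ± 2.84 in controls (SD, n = 3 each), and Lamb2 23.3% ± 0.214 and 25.3% ± 2.61. Among alpha chains Lama5 held 54.9% ± 0.963 in mutants and 53.2% ± 0.733 in controls, and Lama1 22.7% ± 3.79 and 24.6% ± 1.97. The summed beta chain level was 92.4 ± 0.655 CPM per kilobase in mutants and 78.6 ± 4.02 in controls, and the summed alpha chain level 59.0 ± 0.767 and 51.8 ± 4.28. For both sums all 3 mutant values lay above all 3 control values; these sums are given as a description without a test.

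**Figure D2:**
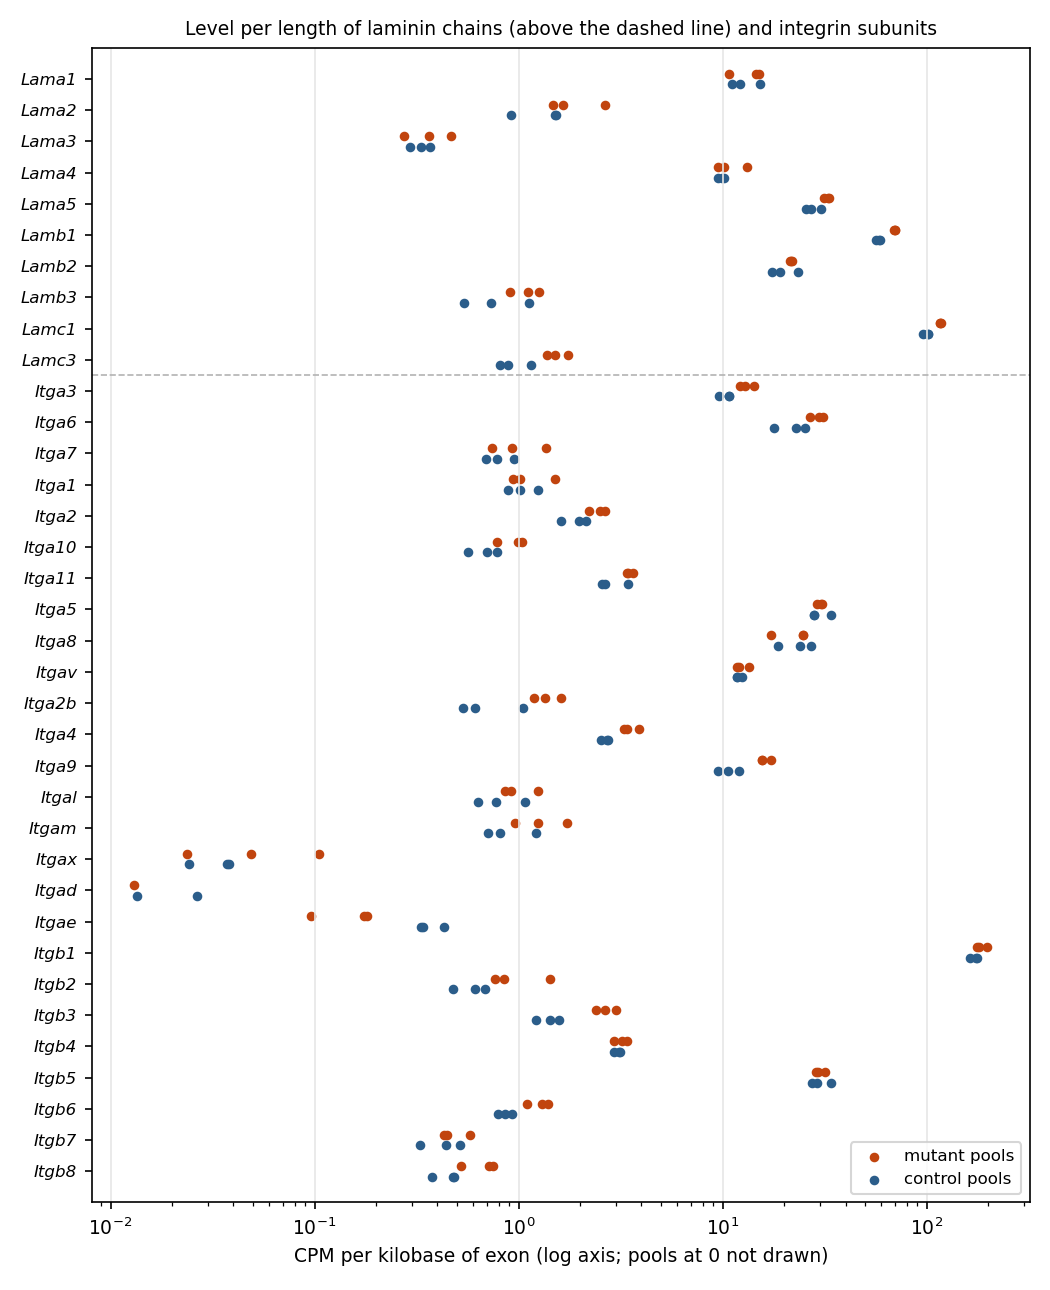
Level of laminin chains and integrin subunits in each pool, in CPM per kilobase of exon on a log axis, with mutant pools in red above control pools in blue. Itgb1 and Lamc1 lie at or near 100 and above, while Itgax and Itgad lie below 0.2.

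Lamb1, the beta chain shared by most embryonic laminins (chromosome 12, 31265234 to 31329644, plus strand), rose in mutants. Its level was 688.4, 696.1 and 691.2 CPM in mutant pools 1 to 3, against 560.8, 582.4 and 577.4 CPM in control pools 1 to 3. The mutant pools lay close together and all above the controls. The log2 fold change was 0.27 (SE 0.0415, edgeR adjusted p = 0.00526), a rise of 20.6%. Lamb1 was called in all 6 fits that left out 1 pool, with log2 fold changes of 0.25 to 0.28.

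Lamc1, the common gamma chain of basement membranes (chromosome 1, 153218922 to 153332786, minus strand), rose beside it. Its level was 966.0, 971.0 and 960.1 CPM in mutant pools 1 to 3, against 791.1, 839.5 and 834.3 CPM in control pools 1 to 3, again without overlap. The log2 fold change was 0.23 (SE 0.0449, edgeR adjusted p = 0.0148). Leaving out mutant pool 2 (edgeR adjusted p = 0.0833), mutant pool 3 (0.062) or control pool 1 (0.068) ended the call, while the log2 fold change stayed between 0.21 and 0.24.

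Lamc3, a scarce gamma chain known from retina and brain (chromosome 2, 31887291 to 31946539, plus strand), rose by the largest factor among laminins. Mutant pools 1 to 3 held 9.17, 10.6 and 8.35 CPM, against 5.37, 4.93 and 7.01 CPM in control pools 1 to 3. These levels are 146, 180 and 146 reads in mutants and 90, 81 and 120 reads in controls. Mutants and controls differed by 0.70 in log2 (SE 0.163, edgeR adjusted p = 0.0336), without overlap. Over 382 bases its exons overlap those of the model Gm13441 on the opposite strand, where reads cannot be told apart. The call held only without control pool 3 among the fits that left out 1 pool, and adjusted p reached 0.124 without mutant pool 2; with the replicate number as a block it was 0.0584.

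Lama5, the main laminin alpha chain of epithelial and endothelial basement membranes, was just outside the threshold. It stood at 355.9, 372.9 and 376.8 CPM in mutant pools 1 to 3, against 289.9, 343.4 and 309.2 CPM in control pools 1 to 3. All mutant pools lay above all control pools. In log2 the difference was 0.23 (SE 0.0611, edgeR adjusted p = 0.054), and it was 0.29 and called without control pool 2 (0.0054), the pool highest among controls. DESeq2 called it as well, at an adjusted p of 0.00739. In the other 5 fits that left out 1 pool edgeR did not call it, with adjusted p from 0.0813 to 0.163, nor without both pools with almost no Xist (0.15).

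The other alpha chains were not called. Lama1, the alpha chain of early embryonic basement membranes, stood at 103.3, 140.1 and 146.0 CPM in mutant pools 1 to 3, against 107.8, 146.8 and 116.9 CPM in control pools 1 to 3. Its groups overlapped widely, and the 95% interval of the log2 fold change ran from -0.21 to 0.35. Lama2, the alpha chain of muscle and peripheral nerve, stood at 43.3, 24.0 and 26.9 CPM in mutant pools 1 to 3, against 24.8, 24.5 and 15.0 CPM in control pools 1 to 3. Mutant pool 1 was the highest of the 6 pools for Lama2, and the log2 fold change of 0.55 was not called (edgeR adjusted p = 0.239). It was 0.25 without mutant pool 1, 0.34 without control pool 3 and 0.05 without both. Lama4, an alpha chain of blood vessels and mesenchyme, averaged 131.9 ± 23.2 CPM in mutants and 118.2 ± 3.73 CPM in controls (SD, n = 3 each), and mutant pool 1 was again the highest. Its log2 fold change was 0.16, and 0.01 without mutant pool 1.

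Lama3 and Lamb3, an alpha and a beta chain known from skin, were scarce and not called. Lama3 had 80, 50 and 68 reads in mutant pools 1 to 3, against 60, 65 and 54 reads in control pools 1 to 3. Lamb3 had 96, 125 and 146 reads in mutant pools 1 to 3, against 60, 122 and 83 reads in control pools 1 to 3. For Lamb3 the log2 fold change of 0.46 had an interval from -0.03 to 0.95, and it was 0.78 and called without control pool 2 (edgeR adjusted p = 0.0497), against 0.324 to 0.657 without any other single pool. Lamb2, the beta chain known from the neuromuscular junction and kidney glomerulus, averaged 131.0 ± 1.68 CPM in mutants and 121.5 ± 18.5 CPM in controls. Control pool 2 held 142.3 CPM of it, above every mutant pool, and without that pool Lamb2 was called higher at a log2 fold change of 0.23 (edgeR adjusted p = 0.016), against 0.662 to 0.93 without any other single pool.

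**Figure D3:**
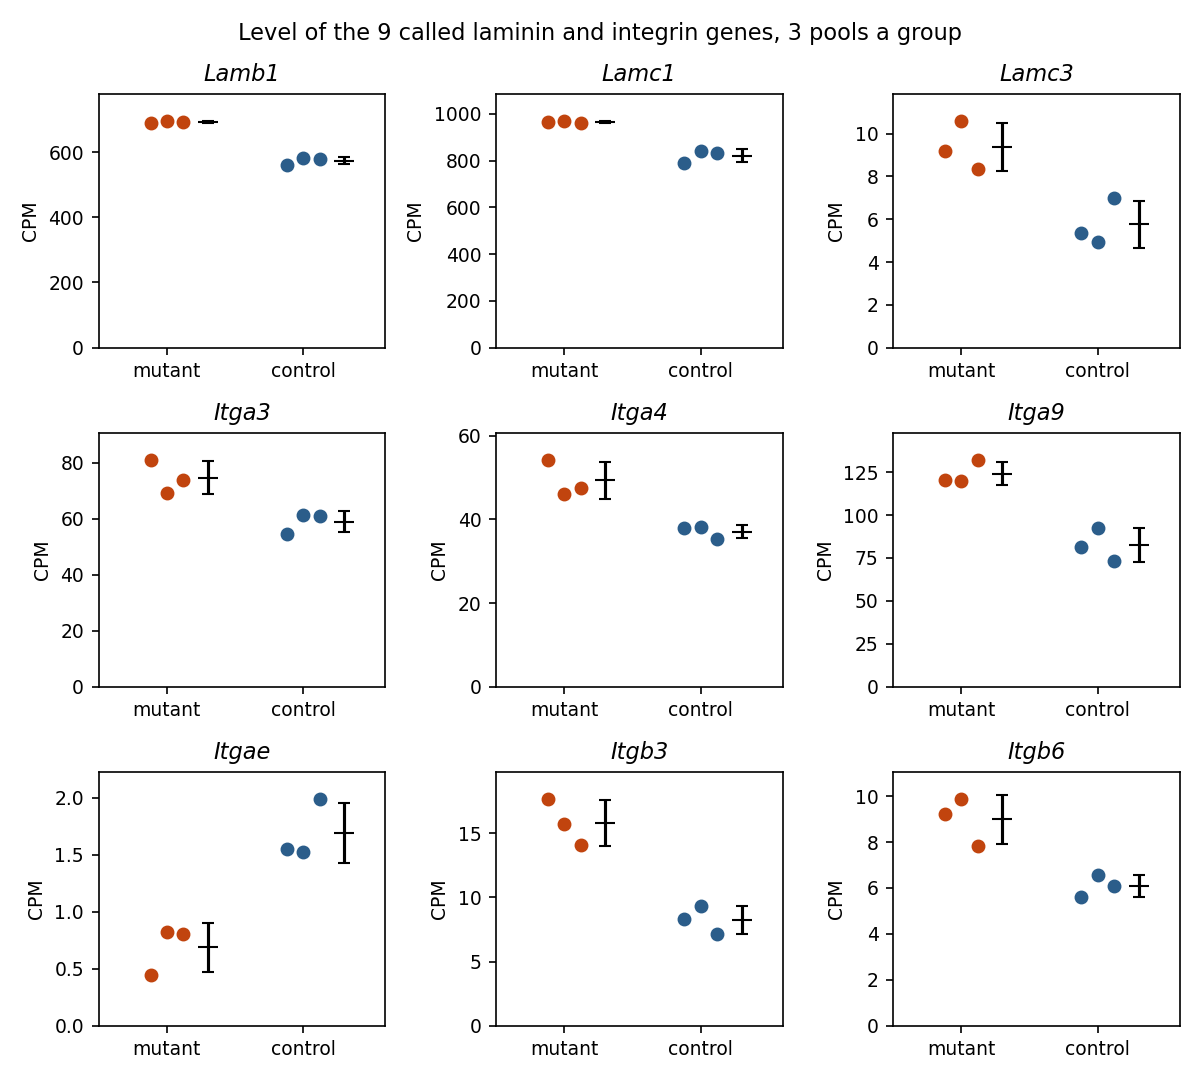
CPM in each pool of the 9 called genes, mutant pools in red left of control pools in blue, with mean and SD (n = 3 each) in black. In every panel the groups do not overlap; the control pools lie higher for Itgae, and the mutant pools lie higher for the other genes. The genes were selected by the test on these same values, and 26.4% of all genes tested did not overlap.

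Promoter sequences are given for called genes whose RefSeq start (GRCm38.p6) lay within 200 bases of the outer end of the annotated gene. They show the DNA just upstream of each gene, and shared regulation was not tested. Of the 9 called genes, 5 had an entry. The entry of Itga9 starts inside the gene and is not shown, and Lamc1, Lamc3, Itgae and Itgb3 had none. Each sequence reads 5′ to 3′ on the gene's strand and ends just before the gene. Capitals mark GC boxes, GGGCGG on either strand, the element bound by Sp1.
Lamb1, chr12:31265043-31265233, plus strand: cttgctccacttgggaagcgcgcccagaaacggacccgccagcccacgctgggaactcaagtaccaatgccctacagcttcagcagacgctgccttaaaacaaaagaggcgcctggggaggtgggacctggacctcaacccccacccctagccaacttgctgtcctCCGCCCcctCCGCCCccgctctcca
Itga3, chr11:95076802-95076964, minus strand: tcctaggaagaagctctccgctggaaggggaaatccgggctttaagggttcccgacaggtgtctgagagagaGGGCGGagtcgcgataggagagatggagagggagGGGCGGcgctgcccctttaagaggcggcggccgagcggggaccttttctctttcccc
Itga4, chr2:79255176-79255425, plus strand: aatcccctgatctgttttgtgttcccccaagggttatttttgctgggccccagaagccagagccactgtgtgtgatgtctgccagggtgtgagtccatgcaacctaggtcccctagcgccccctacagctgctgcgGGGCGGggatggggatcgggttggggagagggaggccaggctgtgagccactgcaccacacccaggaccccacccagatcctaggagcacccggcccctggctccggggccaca
Itgb6, chr2:60722644-60722853, minus strand: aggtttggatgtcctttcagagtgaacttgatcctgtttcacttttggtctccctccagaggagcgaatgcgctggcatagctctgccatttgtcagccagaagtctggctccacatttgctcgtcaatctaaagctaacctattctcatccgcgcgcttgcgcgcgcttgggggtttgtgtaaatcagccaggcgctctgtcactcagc

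The GC box occurred 2 times in the Lamb1 window of 191 bases and 2 times in the Itga3 window of 163 bases. It occurred 1 time in the Itga4 window of 250 bases and 0 times in the Itgb6 window of 210 bases. Among all 32851 RefSeq promoters, 23.1%, 18.4%, 32.7% and 26.7% held the box in the same stretch relative to their own start, in that order of genes. A TATA box (TATAAA, either strand) was in none of the 4 windows, where 7.78% to 12.4% of all promoters held one. The Lamb1, Itga3 and Itgb6 windows, shorter than 250 bases, stop before the RefSeq start. The bases nearest that start were not searched for these genes or in the comparison. These windows therefore cannot show whether a TATA box lies there. A CCAAT box (CCAAT, either strand) occurred 1 time, in the Lamb1 window, where 26.9% of all promoters held one. For the 4 windows this share ran from 21.9% to 33.8%. Windows of Lamb1, Itga3 and Itga4 were 62.6% to 64.0% G and C, and that of Itgb6 52.4%.

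Of the 26 integrin subunits, 24 were tested, of which 5 were higher by the test, 1 lower and 18 unresolved, with a median log2 fold change of 0.33. The share called higher was 20.8%, against 3.67% of all genes tested. In either direction it was 25.0%, against 7.95%. Itgb1, the beta subunit shared by most matrix-binding integrins, was the most abundant of the 37 genes per length, at 185.0 ± 11.1 CPM per kilobase in mutants and 171.4 ± 6.83 in controls (SD, n = 3 each). It made up 82.5% ± 0.866 of beta subunit level per length in mutants and 82.3% ± 1.95 in controls. Itgb5, a partner of Itgav, came second among beta subunits with 13.4% ± 1.1 in mutants and 14.5% ± 1.85 in controls. Among alpha subunits in mutants Itga5, Itga6 and Itga8 led with 30.1 ± 0.949, 29.1 ± 2.14 and 22.2 ± 4.32 CPM per kilobase, followed by Itga9 at 16.1 ± 0.907. In controls Itga5, Itga8 and Itga6 stood at 30.0 ± 3.44, 23.2 ± 4.27 and 22.1 ± 3.8 CPM per kilobase, and Itga9 at 10.7 ± 1.27. The order of Itga6 and Itga8 within controls was within the spread between pools. With the principal transcript as length, Itga6 led at 60.9 CPM per kilobase in mutants and 46.3 in controls.

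Itgb1 stood at 806.6, 721.2 and 737.2 CPM in mutant pools 1 to 3, against 710.2, 667.6 and 720.1 CPM in control pools 1 to 3. The values did not overlap but lay close together. With a log2 fold change of 0.11 (SE 0.0572) Itgb1 missed the edgeR threshold (adjusted p = 0.325), and it did so in all 14 alternative fits too.

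Among receptors of laminin, Itga3, an epithelial partner of Itgb1 (chromosome 11, 95044474 to 95076801, minus strand), rose in mutants. It stood at 81.0, 69.2 and 73.7 CPM in mutant pools 1 to 3, against 54.5, 61.1 and 61.0 CPM in control pools 1 to 3. Itga3 differed by 0.34 in log2 (SE 0.0722, edgeR adjusted p = 0.0222), and all mutant pools lay above all control pools. Leaving out mutant pool 1 (edgeR adjusted p = 0.0648), mutant pool 3 (0.0646) or control pool 1 (0.0854) ended the call. Leaving out both pools with almost no Xist ended it too (edgeR adjusted p = 0.0649). Itga6, which pairs with Itgb1 or Itgb4, stood at 279.8, 266.2 and 241.8 CPM in mutant pools 1 to 3, against 207.9, 161.8 and 228.8 CPM in control pools 1 to 3. Control pool 2 was the lowest, the groups did not overlap, and the log2 fold change of 0.40 was not called (SE 0.112, edgeR adjusted p = 0.0681). It was called by DESeq2 (adjusted p = 0.00152), without control pool 2 (edgeR adjusted p = 0.0414, log2 fold change 0.26) and without control pool 3 (0.0288, log2 fold change 0.50), but not without any other single pool (0.0871 to 0.183).

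Itga7, the laminin receptor of muscle, was scarce at 8.18 ± 2.56 CPM in mutants and 6.53 ± 1.03 CPM in controls and was not called. Itgb4, the hemidesmosome partner of Itga6, stood at 22.3 ± 1.63 CPM in mutants and 21.4 ± 0.737 CPM in controls (SD, n = 3 each). Its log2 fold change of 0.06 had a 95% interval from -0.10 to 0.21, and the groups overlapped.

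Itga9 and Itga4, close relatives in sequence that bind fibronectin or tenascin and the endothelial adhesion molecule Vcam1, were both called higher. Itga9 (chromosome 9, 118606690 to 118901003, plus strand) is known for its part in lymphatic valves, and in cultured endothelial cells Prox1 has been shown to raise it. In these pancreata it stood at 120.3, 120.0 and 132.2 CPM in mutant pools 1 to 3, against 81.5, 92.6 and 73.1 CPM in control pools 1 to 3. The lowest mutant pool lay well above the highest control pool. The log2 fold change was 0.59 (SE 0.0822, edgeR adjusted p = 0.00337), a fold of 1.51, and the gene was called in all 14 alternative fits.

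Itga4 (chromosome 2, 79255426 to 79333123, plus strand), found on leukocytes, neural crest and mesenchyme, stood at 54.3, 46.2 and 47.5 CPM in mutant pools 1 to 3, against 37.9, 38.1 and 35.3 CPM in control pools 1 to 3. All mutant pools lay above all control pools, by 0.41 in log2 (SE 0.0743, edgeR adjusted p = 0.0115). It was called in all 6 fits that left out 1 pool and was lost only without both pools with almost no Xist (edgeR adjusted p = 0.0525). Exons of Itga4 overlap those of Cerkl on the opposite strand over 1124 bases, and without a stated strand setting their reads cannot be told apart there. Cerkl itself had only 3, 11 and 11 reads in mutant pools 1 to 3, against 15, 16 and 30 reads in control pools 1 to 3.

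The 4 collagen receptors Itga1, Itga2, Itga10 and Itga11 were not called, with log2 fold changes from 0.13 to 0.45 and a median of 0.32. Itga2, which binds collagen I and IV, was nearest to the threshold, at 18.9, 17.9 and 15.8 CPM in mutant pools 1 to 3, against 14.0, 15.2 and 11.5 CPM in control pools 1 to 3. Its groups did not overlap (log2 fold change 0.37, SE 0.121, edgeR adjusted p = 0.111). Itga1, 21 kb from Itga2 on chromosome 13, averaged 21.4 ± 5.63 CPM in mutants and 19.5 ± 3.46 CPM in controls (SD, n = 3 each), with overlapping groups. Itga10, with 50 to 87 reads a pool, shares 1739 exon bases with the model Gm42957.

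The abundant subunits for ligands with the RGD motif differed little, and none was called. Itga5, the fibronectin receptor subunit, stood at 150.7, 143.4 and 152.0 CPM in mutant pools 1 to 3, against 138.5, 167.6 and 137.8 CPM in control pools 1 to 3, with control pool 2 the highest. Its log2 fold change was 0.01, with a 95% interval from -0.14 to 0.15. Itgav, the partner of Itgb3, Itgb5, Itgb6 and Itgb8, had a log2 fold change of 0.05 with an interval from -0.06 to 0.17. Itga8, a receptor for nephronectin on mesenchyme, stood at 181.9, 126.8 and 182.0 CPM in mutant pools 1 to 3, against 176.7, 199.4 and 137.3 CPM in control pools 1 to 3. Its pools varied more within a group than between groups, and its interval ran from -0.38 to 0.25. Itgb5 had a log2 fold change of -0.0046 with an interval from -0.16 to 0.15.

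Itgb3, which pairs with Itgav on many cells and with Itga2b on platelets (chromosome 11, 104608000 to 104670476, plus strand), had the largest called rise of the 35 genes. It stood at 17.7, 15.7 and 14.1 CPM in mutant pools 1 to 3, against 8.35, 9.31 and 7.13 CPM in control pools 1 to 3. The groups were far apart relative to their spread. The log2 fold change was 0.94 (SE 0.131, edgeR adjusted p = 0.0035), a fold of 1.91, and the gene was called in all 14 alternative fits. Itga2b, the platelet and megakaryocyte alpha subunit, stood at 8.86, 6.48 and 7.38 CPM in mutant pools 1 to 3, against 3.34, 5.72 and 2.92 CPM in control pools 1 to 3. Its log2 fold change of 0.92 (SE 0.248) missed the threshold (edgeR adjusted p = 0.0569), although the groups did not overlap. DESeq2 (adjusted p = 0.00809) and limma voom (0.0412) called it, and without control pool 2 it was 1.27 and called by edgeR (0.0054). Without any other single pool edgeR did not call it (adjusted p 0.0923 to 0.177).

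The summed level of megakaryocyte and platelet markers was 22.0 to 30.1 CPM in mutants and 13.7 to 16.1 CPM in controls. Among 9 markers tested 2 were called higher, Ppbp and Gp1ba, 0 lower and 7 not called, with log2 fold changes from -0.13 to 2.38. The share called higher was 22.2%, against 3.67% of all genes tested. None of the 11 listed markers was at 0 in every pool, and Gp6 was the scarcest. Their part in the values of Itgb3 and Itga2b was not tested.

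Itgb6 (chromosome 2, 60598292 to 60722643, minus strand) and Itgb8 encode epithelial and mesenchymal partners of Itgav that release active TGF-beta. Itgb6 rose, standing at 9.24, 9.89 and 7.83 CPM in mutant pools 1 to 3, against 5.61, 6.57 and 6.07 CPM in control pools 1 to 3. Its log2 difference was 0.56 (SE 0.134, edgeR adjusted p = 0.0369), and the groups did not overlap. That call ended in 4 of the 6 fits that left out 1 pool, namely without mutant pool 1 (edgeR adjusted p = 0.101), mutant pool 2 (0.138), control pool 1 (0.122) or control pool 3 (0.0913). Without both pools with almost no Xist it ended as well (edgeR adjusted p = 0.157). Itgb8 stood at 8.30, 7.95 and 5.78 CPM in mutant pools 1 to 3, against 4.18, 5.36 and 5.26 CPM in control pools 1 to 3. It did not overlap between groups but was not called (log2 fold change 0.57, SE 0.179, edgeR adjusted p = 0.0956). Without mutant pool 3 it was called, at a log2 fold change of 0.72 (0.0467), against 0.0993 to 0.265 without any other single pool.

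Integrins restricted to leukocytes were scarce. Itgae, which pairs with Itgb7 and binds E-cadherin (chromosome 11, 73090583 to 73147446, plus strand), was the single gene called lower. It had 7, 14 and 14 reads in mutant pools 1 to 3, against 26, 25 and 34 reads in control pools 1 to 3, or 0.688 ± 0.215 CPM and 1.69 ± 0.26 CPM (SD, n = 3 each). The groups did not overlap, and the log2 fold change was -1.28 (SE 0.3, edgeR adjusted p = 0.0343). The call rests on few reads: it was lost in 5 of the 6 fits that left out 1 pool, with adjusted p up to 0.112 without control pool 3, and with DESeq2 (0.0813). Without both pools with almost no Xist it was lost as well (edgeR adjusted p = 0.209). Itgb7, its partner, had 19, 21 and 28 reads in mutant pools 1 to 3, against 24, 15 and 21 reads in control pools 1 to 3, and was not called. Cdh1, the gene of E-cadherin, was called lower, at 467.8 ± 22.3 CPM in mutants and 626.6 ± 65.4 CPM in controls (log2 fold change -0.42, SE 0.0745, edgeR adjusted p = 0.01).

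Itgb2, the beta subunit common to Itgal, Itgam, Itgax and Itgad, had 69, 44 and 41 reads in mutant pools 1 to 3, against 35, 24 and 32 reads in control pools 1 to 3. Its groups did not overlap, but the difference of 0.77 in log2 (SE 0.282) missed the threshold (edgeR adjusted p = 0.151) and was 0.45 without mutant pool 1. Itgal, of lymphocytes, and Itgam, of macrophages and neutrophils, were not called, at log2 fold changes of 0.28 and 0.51 with overlapping groups. Itgax had 8, 4 and 2 reads in mutant pools 1 to 3, against 3, 3 and 2 reads in control pools 1 to 3. Itgad had 0, 1 and 0 reads in mutant pools 1 to 3, against 2, 1 and 0 reads in control pools 1 to 3; a count of 0 allows up to 3 reads, or 0.172 to 0.189 CPM. Both were left untested, and they lie beside Itgam on chromosome 7 as close copies, so reads may be split between them. Of the exon bases of Itgam, 3450 are also annotated to the model Gm49368.

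Blood cell markers differed in part. The summed level of 11 neutrophil markers was 60.9 to 176.6 CPM in mutants and 5.97 to 68.6 CPM in controls, with 5 of 10 tested called higher. Over all genes tested, 3.67% were called higher and 7.95% in either direction. The summed level of 14 pan-leukocyte and macrophage markers was 343.0 to 397.7 CPM in mutants and 328.5 to 390.5 CPM in controls, with 0 of 14 tested called by edgeR, 4 at an unadjusted p under 0.05 and 1 by DESeq2. No marker of either list was at 0 in every pool. Their part in the values of Itgb2, Itgam, Itgal and Itga4 was not tested.

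**Figure D4:**
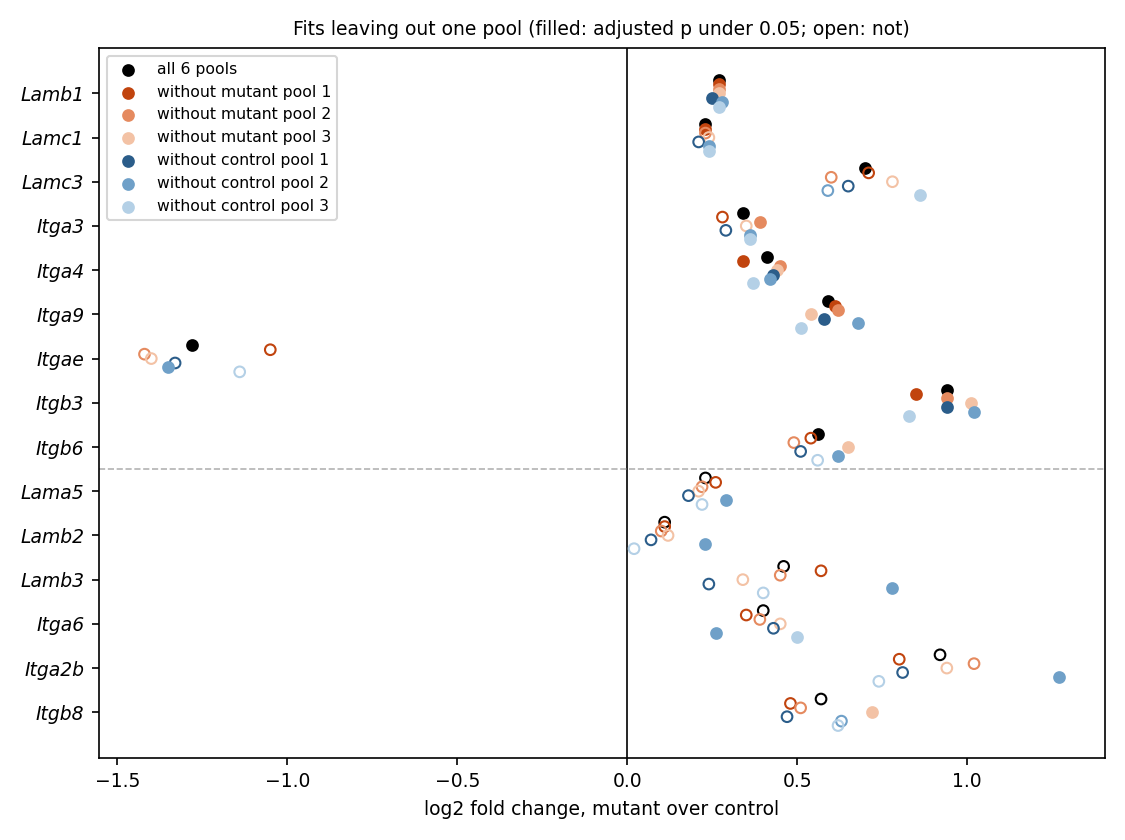
Log2 fold change, mutant over control, with all 6 pools (black) and without each mutant pool (red shades) or control pool (blue shades); filled points have an edgeR adjusted p under 0.05. The 9 genes called with all pools lie above the dashed line, where Lamb1, Itga4, Itga9 and Itgb3 are filled throughout; those below it are open with all pools and filled in at least 1 fit that left out a pool.

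Other components of basement membranes moved in both directions. Of 22 tested partners of laminin, 7 passed as higher in mutants (31.8%), 2 as lower and 13 did not pass, with a median log2 fold change of 0.18. Among all genes tested, 3.67% were called higher and 4.28% lower. The collagen IV genes Col4a1 and Col4a2, which form the second network of the membrane, rose by log2 fold changes of 0.29 (SE 0.0526) and 0.32 (SE 0.0558). Col4a1 stood at 952.4 ± 56.0 CPM in mutants and 776.8 ± 2.41 CPM in controls (SD, n = 3 each). Col4a6 stood at 47.6 ± 5.91 CPM in mutants and 30.0 ± 1.4 CPM in controls, a log2 fold change of 0.66. Nid2, a nidogen that links laminin to collagen IV, rose by 0.22 (SE 0.0404), and its relative Nid1 was called too. Fbln2, a fibulin that binds laminin and nidogen, rose by 0.42 (SE 0.0457, edgeR adjusted p = 0.00106). The heparan sulphate proteoglycan genes Hspg2 and Agrn were not called, and Smoc1, a SPARC-related matrix protein, was called lower at -0.40 (SE 0.0815).

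A further list held laminin receptors outside the integrin family, their cytoskeletal linkers and tetraspanin partners of integrins. It also held other surface proteins such as Cd44 and Cspg4. Of its 18 tested genes, 4 passed as higher (22.2%), against 3.67% of all genes tested, 0 as lower and 14 did not pass. The median log2 fold change was 0.11. Bcam, the Lutheran glycoprotein that binds the Lama5 chain, stood at 117.0, 112.2 and 100.6 CPM in mutant pools 1 to 3, against 84.3, 86.6 and 81.1 CPM in control pools 1 to 3 (log2 fold change 0.39, SE 0.0615, edgeR adjusted p = 0.00609). Dag1, encoding dystroglycan, had a log2 fold change of 0.04 and was not called. Cspg4, a proteoglycan of pericytes, rose by 0.63 (SE 0.0631), Cd44, the hyaluronan receptor, by 1.08 (SE 0.24), and Sdc2, a syndecan, by 0.20 (SE 0.0494).

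Ligands of other integrins included genes called in each direction, 7 higher (30.4%) and 3 lower of 23 tested, with a median of 0.27. The shares over all genes tested were 3.67% higher and 4.28% lower. Vtn, encoding the plasma protein vitronectin that Itgav integrins bind, stood at 34.3, 46.2 and 52.8 CPM in mutant pools 1 to 3, against 96.1, 79.8 and 129.0 CPM in control pools 1 to 3. Its log2 fold change was -1.19 (SE 0.189, edgeR adjusted p = 0.00614). Fbn1, a fibrillin of microfibrils, rose by 0.41 (SE 0.0648), Thbs1, encoding thrombospondin, by 0.40 (SE 0.0737), Cyr61 by 0.42 (SE 0.0807) and Tgfb3 by 0.59 (SE 0.102). Tnc, encoding the Itga9 ligand tenascin C, was called higher as well, at 36.8, 28.7 and 22.1 CPM in mutant pools 1 to 3, against 16.2, 18.4 and 14.1 CPM in control pools 1 to 3 (log2 fold change 0.85, SE 0.175, edgeR adjusted p = 0.0205). Fn1, encoding fibronectin, was not called at 0.42, and neither was Vcam1 at 0.16.

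The cytoplasmic genes that connect integrins to actin showed no call. Of 30 tested genes of the adhesion complex, among them the talin genes Tln1 and Tln2, the kindlin genes Fermt1 to Fermt3, Ilk, Vcl and Ptk2, edgeR called 0, with 9 at an unadjusted p under 0.05, and DESeq2 called 2 and limma voom 0. Their median log2 fold change was 0.10. Over all genes tested edgeR called 7.95%. Without control pool 2, it called 5 of the 30 adhesion complex genes, against 9.57% of all genes then tested.

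The summed level of 12 mesenchyme markers was 9755 to 11180 CPM in mutants and 8805 to 9061 CPM in controls. Among these 12, 2 were called higher, Col1a1 and Barx1, and 0 lower. Their log2 fold changes ran from -0.55 to 0.64, with 8 above 0. Of 10 pericyte and smooth muscle markers 3 were called higher, Cspg4, Kcnj8 and Abcc9, and 0 lower. Their log2 fold changes ran from -2.73 to 0.64. Myh11, at -2.73, and Cnn1, at -2.02, were not called, and control pool 2 was highest for both (73.6 and 9.80 CPM). This list had summed levels of 1102 to 1178 CPM in mutants and 800.0 to 1113 CPM in controls. Of 10 epithelial markers 3 were called lower, with the sums given above. Endothelial markers summed to 775.7 to 976.6 CPM in mutants and 696.0 to 780.5 CPM in controls, with 0 of 12 called by edgeR, 4 at an unadjusted p under 0.05 and 0 by DESeq2 or limma voom. Of 10 endocrine markers 8 were called lower, with summed levels of 1378.0 to 1471.8 CPM in mutants and 1952.5 to 2595.3 CPM in controls. Among 13 markers of neural crest, neurons and glia 6 were called lower. Their summed levels were 163.9 to 187.6 CPM in mutants and 206.1 to 278.8 CPM in controls. Of 13 erythroid markers 7 were called higher, and of 7 gut and spleen markers 2 higher and 1 lower. Among 6 mesothelial markers edgeR called 0, with 3 at an unadjusted p under 0.05, 1 by DESeq2 and 0 by limma voom. Beside all these lists, 3.67% of all genes tested were called higher and 4.28% lower. No marker of these lists was at 0 in every pool, and their part in the laminin and integrin values was not tested. Some called genes count in several lists. Barx1 is on the mesenchyme and the gut and spleen lists, and Cspg4 on the pericyte list and that with laminin receptors. Cdh1 is on the epithelial and the integrin ligand lists.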

How the data were processed

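RNA from 3 mutant and 3 control pools of E13.5 mouse pancreas was sequenced, 1 library a pool. The deposited files hold whole-number read counts per gene symbol, not normalized by the authors. Per the submitters' processing notes, cutadapt 1.13, STAR, HTSeq 0.6.1p1, DESeq2 and build mm10 were used; how each was used, which annotation, whether strand was used and how multi-mapping reads were handled is not given in the sources used here. The labels name Trizol and the series text a column kit for extraction.

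Counts were tested with edgeR 4.0.16 in R 4.3.3: filterByExpr with a minimum count of 10, TMM scaling and the quasi-likelihood F test, with a single term for genotype. P-values were adjusted by Benjamini-Hochberg over 14687 genes, and called means under 0.05. The SE was derived from the coefficient and F, and 95% intervals use the normal quantile, so they are narrower than the test. The test was checked on simulated counts. CPM divides counts by the library total times its TMM factor. Lengths and positions are from GENCODE M21 (GRCm38), which matched 22816 of 23337 symbols (97.8%); level per kilobase uses the union of exons. Alternatives used DESeq2 1.42.0 and limma 3.58.1.

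The members, the partner and marker lists and the alternatives were chosen with earlier results of these data known. Members are named, except 1 that is counted but not reported here; of partner lists, called genes with the smallest adjusted p, at most 6 a list, are named. Nid1, Tnc and uncalled list genes were named after their values were seen. Replicate numbers do not come with a stated litter or day, and pools are the unit of replication. Limits from counts cover counting error only.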

Additional observations from a re-analysis of the deposited data

How the results depend on the processing

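Of 490 recomputed log2 fold changes of the 35 tested genes, 429 kept both direction and side of the threshold, 26 lost their call, 14 gained one and 21 changed sign. Leaving out 1 pool at a time gave 4 to 13 called laminin and integrin genes (4 to 12 higher, 0 to 1 lower), 1 to 5 laminin chains and 3 to 8 integrin subunits, and over all genes 629 to 1421 calls, 282 to 696 higher and 343 to 725 lower. Without the libraries control 3 and mutant 1 there were 5 called members, 5 higher and 0 lower, of which 2 were integrins, and 665 genes in all, 315 higher and 350 lower. DESeq2 called 11 members and 0 lower. These fits test fewer pools; otherwise the cause was not tested. All sign changes were of uncalled genes. Leaving out 1 pool at a time, log2 fold changes ran from -0.02 to 0.21 for Lama1, -0.06 to 0.32 for Lama3, -0.10 to 0.27 for Itga1, -0.05 to 0.10 for Itga5, -0.21 to 0.09 for Itga8, -0.01 to 0.09 for Itgav and -0.07 to 0.08 for Itgb5. Without the libraries control 3 and mutant 1, Lama3 was -0.14, Itga1 -0.22, Itga5 -0.05, Itgav -0.03 and Itgal -0.07; Itga5 was -0.02 with library totals only, and Itgb5 0.00097 with limma voom. Library totals in place of TMM moved the median of all genes to -0.03 and the split of all calls to 463 higher and 717 lower, and called 9 of the 9 members again.

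With the replicate number as a block, 9 members were called, 8 higher and 1 lower, with 8 shared with the fit without it (Lama5 gained, Lamc3 lost), and 1138 genes in all, 576 higher and 562 lower. Same-numbered pools did not deviate together throughout: correlations of their deviations from group means were 0.138, 0.101 and -0.0497 for numbers 1 to 3, and mutant pool 3 correlated best with control pool 2 (0.159), so the numbers are not taken as pairs. At this depth, genes such as Itgae, Itgb7, Itgax and Itgad carry few reads, and differences in them are imprecise.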
